A study of Mus musculus with 6 samples.

Results

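The G1 cyclins, cyclin-dependent kinases (CDKs) and inhibitors are 10 genes of the expression table of leukemia stem cells (LSCs), taken by symbol: Ccnd1, Ccnd2, Ccnd3, Ccne1, Ccne2, Cdk4, Cdk6, Cdkn1b, Cdkn2c and Rb1. All 10 were found among the 26402 genes with values, and all 10 are among the 16746 genes with a mean value of at least 1 that were tested. The study compared LSCs with and without a conditional deletion of Piezo1, a mechanosensitive cation channel, in a mouse model of acute myeloid leukemia (AML). Bone marrow cells without lineage markers were transduced with a retrovirus carrying MLL-AF9 and YFP and transplanted into irradiated recipients, so every library of both groups carries the MLL-AF9 fusion. WT cells came from Piezo1 fl/fl mice and Piezo1cKO cells from Mx1-cre; Piezo1 fl/fl littermates on the C57BL/6J background, and both were treated with pIpC, which switches on Mx1-cre. Mx1-cre acts in blood cells and in other cells that respond to interferon. LSCs were sorted from the bone marrow of AML mice as YFP+ Lin- Sca-1- c-Kit+ CD16/32hi CD34+ cells, and 3 libraries were made of each group. The age given is 8 to 10 weeks, which the paper states for the marrow donors and the recipients, not for the time of sorting.

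Cells pass from G1 into S phase when D cyclins, bound to Cdk4 or Cdk6, phosphorylate the retinoblastoma protein Rb1 and free the E2F transcription factors it holds. E2F factors switch on the E cyclins, which with Cdk2 complete the phosphorylation and start DNA replication. Inhibitors of the INK4 family, such as p18 (Cdkn2c), bind Cdk4 and Cdk6 and keep D cyclins off. Inhibitors of the CIP/KIP family, such as p27 (Cdkn1b), block Cdk2 complexes and can also sit on D cyclin complexes. In blood formation Cdk6, p18 and p27 are known for setting how readily stem and progenitor cells leave rest, and Cdk6 is a known direct target of MLL fusion proteins.

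Among the 10 genes, upstream sequence is shown for the inhibitor that fell, the inhibitor that rose and the kinase that rose. The study follows the factor HIF1A, and these genes can be read against a core of its binding sites. The sequences are those of RefSeq on GRCm38.p6, which gave promoters for 6 of the 10 genes, with 8 start sites. Each runs 5′ to 3′ on the strand of its gene up to the base before a start site and leaves out bases that lie in an annotated exon. Capitals mark the HIF core, ACGTG or GCGTG on either strand (the reverse complements are CACGT and CACGC).
Cdkn2c, chr4:109665373-109665609, minus strand, before the second start site: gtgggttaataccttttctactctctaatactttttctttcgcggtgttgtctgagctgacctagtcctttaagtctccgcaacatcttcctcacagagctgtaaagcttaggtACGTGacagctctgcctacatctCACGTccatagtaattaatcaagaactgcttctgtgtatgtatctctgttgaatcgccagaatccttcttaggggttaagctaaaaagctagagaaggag
Cdkn1b, chr6:134920151-134920400, plus strand: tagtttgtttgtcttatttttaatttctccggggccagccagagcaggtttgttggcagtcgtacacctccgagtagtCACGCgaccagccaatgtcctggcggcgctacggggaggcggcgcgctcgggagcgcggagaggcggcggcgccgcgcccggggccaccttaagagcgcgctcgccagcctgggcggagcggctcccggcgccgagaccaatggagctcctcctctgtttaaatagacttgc
Cdk6, chr5:3343789-3343892, plus strand: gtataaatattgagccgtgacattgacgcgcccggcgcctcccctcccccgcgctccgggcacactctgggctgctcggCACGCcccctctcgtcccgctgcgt
The core stood at 2 places in the stretch of Cdkn2c and at 1 place in that of Cdkn1b and in that of Cdk6. The paper gives the HIF1A motif as GCGTR, where R is A or G. Its form GCGTA was not searched here, and ACGTG, the core at both places of Cdkn2c, is not a form of it. Over the full 250 bases before a start site, 7 of the 8 promoters of these genes held the core, and so did 38.6% of all 32851 mouse promoters in the table. The E2F octamers TTTCCCGC, TTTGGCGC and TTTCGCGC, searched on both strands, were in 0 of the 8 and in 1.53% of all promoters, so that no match of one motif overlapped a match of the other. Genes that rose and genes that fell both held the HIF core, and a match of letters is a description of the window, not a site.

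The deposited values are log2 expression values, scaled for library size and shrunken towards the mean of each gene, so that a difference on this scale is smaller than that of the reads, above all in genes with low counts. The transform could be undone, and the reads recovered on genes numbered from 14112121 to 15483618 per library. Values are given below as recovered reads divided by the library's size factor (normalized reads), and log2 fold changes, Piezo1cKO minus WT, on the deposited scale unless recovered reads are named. Piezo1 (chromosome 8, 122481698 to 122551329) had 101, 92.8 and 109 normalized reads in the WT libraries and 36.6, 56.5 and 45.8 in the Piezo1cKO libraries, 45.9% of the WT mean (log2 fold change -0.29, limma, adjusted p = 5.8e-06, standard error 0.04). Its counts cover the whole gene, and Ctu2, which shares 24.6% of its exons on the opposite strand, fell too (log2 fold change -0.46). The genes of the LSC gate and the MLL-AF9 program (Kit, Cd34, Fcgr3, Fcgr2b, Hoxa9 and Meis1) were expressed in every library, with sums of 19307 to 19606 normalized reads in WT and 20236 to 20719 in Piezo1cKO. These sums hold opposite changes: the Piezo1cKO mean was 48.1% of the WT mean for Fcgr2b, 136% for Kit and 156% for Cd34 (limma, largest adjusted p = 8.42e-09). Meis1 fell by less, to 86.8% of the WT mean (limma, adjusted p = 0.00278), and Fcgr3 and Hoxa9 did not pass the test. Ly6a, which encodes Sca-1, had at most 17 reads in any library. Its recovered reads were 1, 1 and 0 in WT and 10, 17 and 7 in Piezo1cKO (log2 fold change 0.08, limma, adjusted p = 0.000535). Marker sums of other cells moved with the groups: the sum of B cell genes was higher in Piezo1cKO (12224 to 12586 in WT, 22355 to 22740 in Piezo1cKO), as were those of mast cells and basophils (663 to 723, 5173 to 5538), dendritic cells (763 to 837, 5573 to 5713) and T and NK cells (7.70 to 15.5, 51.2 to 66.1). The B cell sum was mostly Ighm and Cd79b, and Cd79a had at most 17 recovered reads in any library. The mast cell and basophil sum was mostly Cpa3 (means of 565 normalized reads in WT and 5003 in Piezo1cKO). Mcpt8, Ms4a2 and Tpsb2 rose from lower levels (Mcpt8 to 202% of the WT mean). Fcer1a did not pass the test (limma, adjusted p = 0.149). In Piezo1cKO the dendritic cell sum was mostly H2-Ab1, Flt3 and H2-Aa (means of 3346, 1606 and 614 normalized reads). Itgax had at most 6 recovered reads in any library and Siglech at most 9. The T and NK cell sum was carried in Piezo1cKO by Klrb1c (0 recovered reads in each WT library, then 32, 38 and 52) and Trac (5, 2 and 2, then 17, 16 and 13), whereas Cd3d was lower (7, 5 and 4, then 0, 2 and 0). The neutrophil sum was lower (2028 to 2049, 887 to 932), and its genes did not move as one: Camp, Ngp and Ltf fell, while Mmp8 rose from 39, 42 and 49 recovered reads to 623, 639 and 616 and Cxcr2 did not pass the test. The erythroid sum was lower too (88.3 to 108, 25.4 to 34.1), and the macrophage ranges overlapped (911 to 989, 926 to 1049). That macrophage sum was mostly Adgre1 and Vcam1, which did not pass the test. C1qc rose from 0 recovered reads in each WT library to 21, 29 and 15 in Piezo1cKO, and C1qb from 0, 2 and 0 to 6, 17 and 10. Of the defining genes, Ms4a1 and Pax5 of B cells, Cd3e, Cd3g and Ncr1 of T and NK cells and Ly6g of neutrophils had at most 3 reads in every library. The part of these markers in the results below was not tested. In such bulk libraries fewer cells of a type and less RNA per cell cannot be told apart.

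Across the G1 genes, 3 were higher in Piezo1cKO LSCs (Ccnd1, Cdk6 and Cdkn1b) and 7 were lower at an adjusted p under 0.05, where 31.6% of all genes tested were higher and 31.4% lower. With the values recentred on library medians, the higher genes made up 60.5% of all calls, against 50.2% without, and the signs of the 10 genes stayed. The 3 WT and the 3 Piezo1cKO libraries did not overlap for any of the 10 genes, which also held for 66.6% of all genes tested. Their median log2 fold change was -0.16, against 0.00 for all genes tested. The median absolute log2 fold change of the 10 was 0.26 on the deposited scale, against 0.09, and it ran from 0.05 for Cdk4 to 1.52 for Cdkn2c. This scale holds back genes with few reads. On recovered reads, 13.3% of all genes changed as much as Cdkn2c, 19.0% as Ccnd1, 22.8% as Ccnd2 and 32.5% as Cdkn1b. The shares were 55.3% for Ccne1, 56.8% for Ccnd3, 56.9% for Cdk6, 57.1% for Ccne2, 62.9% for Rb1 and 89.2% for Cdk4. At an absolute log2 fold change over 1 as well, Cdkn2c alone passed on the deposited scale (0.818% of all genes tested passed), and on recovered reads Ccnd1 passed among the higher genes (12.7% of all genes) and Ccnd2 and Cdkn2c among the lower (12.2%). Nothing in the labels says that the libraries of a group came from separate mice, so the p-values measure only the spread between these libraries.

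**Figure D1:**
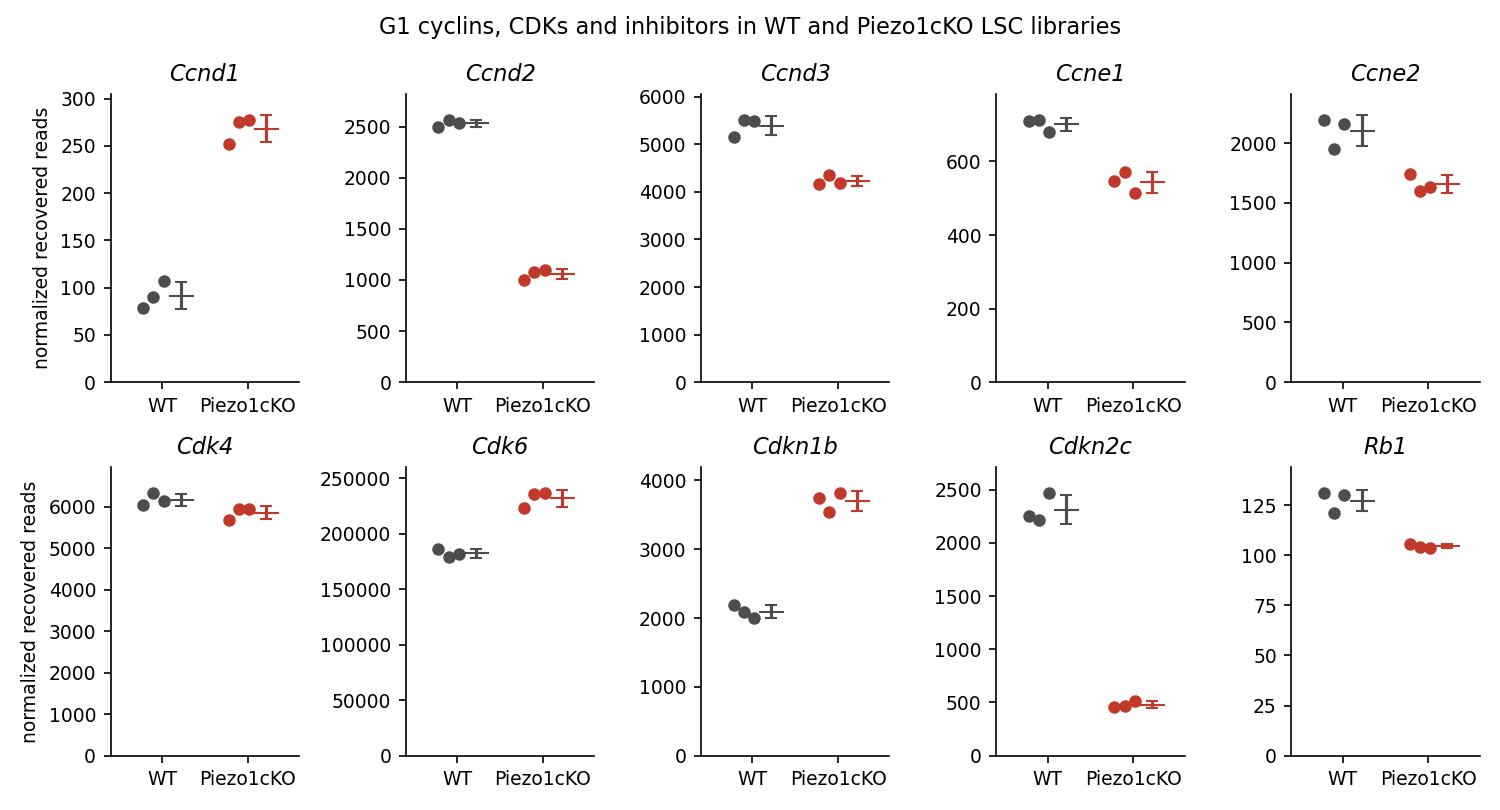
Normalized recovered reads (vertical axes, from 0, 1 scale per gene) of the 10 G1 genes in the 3 WT (grey) and 3 Piezo1cKO (red) LSC libraries. Points are libraries, and the bar beside them is the mean with its SD (n = 3). Ccnd1, Cdk6 and Cdkn1b were higher in Piezo1cKO, the other 7 lower, and the gap was smallest for Cdk4.

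The D cyclins moved in different directions. Ccnd2 encodes cyclin D2, a D cyclin that responds to growth factors in blood cells (chromosome 6, 127125162 to 127152193). It had 2493, 2566 and 2536 normalized reads in the WT libraries and 1003, 1077 and 1097 in the Piezo1cKO libraries. The groups were far apart and the libraries within each were close, with the Piezo1cKO mean at 41.8% of the WT mean. Its deposited value was 11.13 ± 0.02 in WT and 10.26 ± 0.04 in Piezo1cKO (SD, n = 3), with a log2 fold change of -0.87 (limma, adjusted p = 2.29e-14, standard error 0.03), the 134th lowest of the 16746 genes tested. That rank is on the deposited scale, and on recovered reads 22.8% of all genes changed by as much or more. Of the exons of Ccnd2, 3.95% and 3.91% are shared with the antisense genes Gm43126 and 9330179D12Rik, which had at most 10 recovered reads in any library.

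Ccnd3, encoding cyclin D3, was the D cyclin with the most reads per length (chromosome 17, 47505051 to 47599691). Normalized reads of Ccnd3 were 5162, 5518 and 5490 in WT and 4161, 4349 and 4182 in Piezo1cKO. Every Piezo1cKO library lay below every WT library, at 78.5% of the WT mean. The fall was smaller than that of Ccnd2, with a log2 fold change of -0.25 (limma, adjusted p = 1.02e-07, standard error 0.03). Bysl, which overlaps 4.11% of the exons of Ccnd3 on the opposite strand, also fell, by 0.15 on the log2 scale.

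Ccnd1, encoding cyclin D1, rose from a low level (chromosome 7, 144929931 to 144939925). The WT libraries had 78.6, 89.8 and 107 normalized reads and the Piezo1cKO libraries 252, 276 and 278. Even the lowest Piezo1cKO library was far above the highest WT library, and the mean rose 2.93-fold. The deposited values were 7.05 ± 0.07 in WT and 7.69 ± 0.04 in Piezo1cKO (SD, n = 3), with a log2 fold change of 0.64 (limma, adjusted p = 2.94e-10, standard error 0.04), and the recovered reads gave 1.55 (limma-voom, adjusted p = 3.06e-08, standard error 0.12). LTO1 shares 23.4% of the exons of Ccnd1 on the opposite strand, and whether strand was used in counting is not given in the sources used here. LTO1 itself had 449, 451 and 410 recovered reads in WT and 437, 460 and 420 in Piezo1cKO (log2 fold change 0.03, limma, adjusted p = 0.503).

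Set side by side per kilobase of exons, the 3 D cyclins summed to 903 ± 28.5 normalized reads in WT and 652 ± 17.2 in Piezo1cKO (SD, n = 3), 72.2% of the WT sum. The share of Ccnd1 in this sum was 1.92%, 2.07% and 2.47% in the WT libraries and 8.43%, 8.76% and 9.05% in the Piezo1cKO libraries. That of Ccnd2 was 30.5%, 29.6% and 29.4% against 16.8%, 17.1% and 17.9%. Ccnd3 took most of the sum in both groups, with 68.0% ± 0.357 in WT and 74.0% ± 0.851 in Piezo1cKO (SD, n = 3). For each of the 3 shares the groups did not overlap, and the exact two-sided permutation test gave p = 0.1, the smallest that 3 libraries against 3 allow (adjusted over 5 shares, 0.125). Per length, the ratio of Ccnd2 to Ccnd1 was 15.9, 14.3 and 11.9 in the WT libraries and 1.99, 1.95 and 1.98 in the Piezo1cKO libraries. The order Ccnd3, Ccnd2, Ccnd1 was the same in all 6 libraries. Taken with the length of the longest transcript in place of all exons, the gain in the Ccnd1 share was 4.03 percentage points in place of 6.59, and from deposited values raised to the power of 2 it was 3.26.

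**Figure D2:**
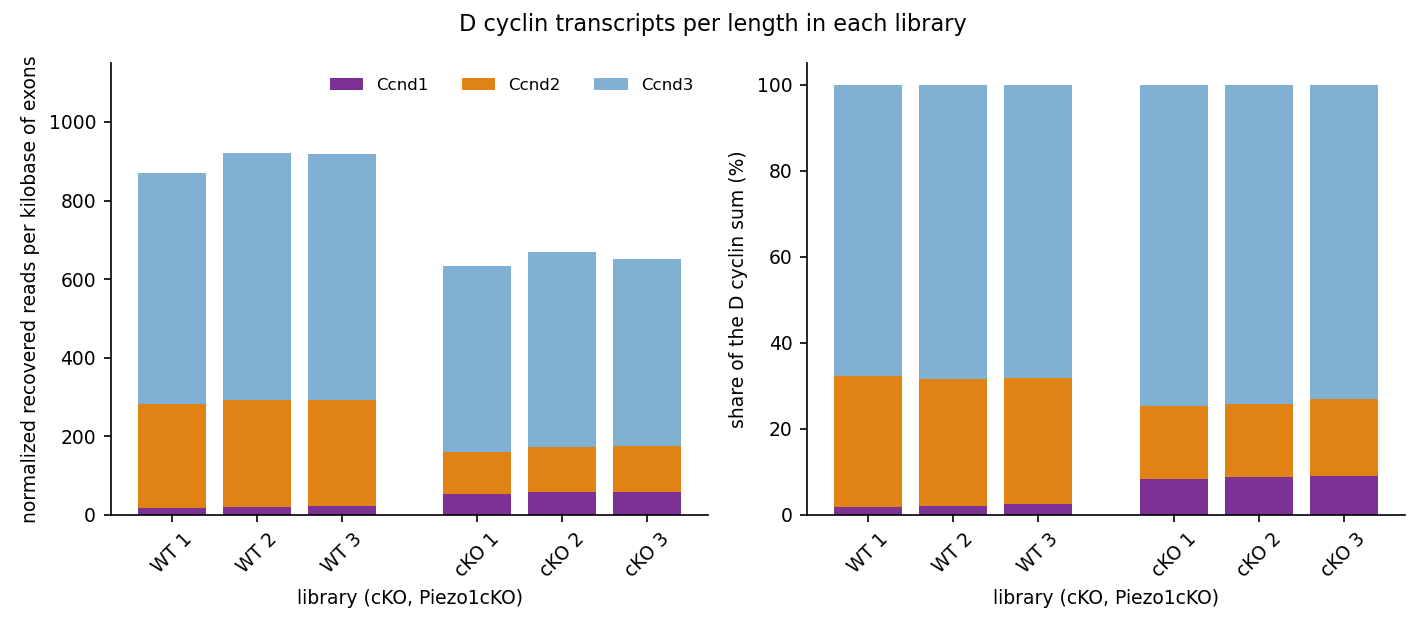
D cyclin transcripts in each LSC library (cKO, Piezo1cKO), as normalized recovered reads per kilobase of exons (left) and as shares of their sum in percent (right). The stacked bars show a lower sum in the Piezo1cKO libraries (634 to 669, against 870 to 921 in WT), a wider Ccnd1 layer and a narrower Ccnd2 layer.

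Of the kinases that D cyclins bind, Cdk6 rose and Cdk4 was slightly lower. Cdk6 (chromosome 5, 3341485 to 3531008) was among the most abundant transcripts of these cells, between the 7th and the 17th place per length among 25529 genes in every library, with up to 1.25% of all recovered reads in WT and up to 1.61% in Piezo1cKO. Its normalized reads were 186422, 178723 and 181270 in WT and 223298, 235486 and 236361 in Piezo1cKO. Each Piezo1cKO library exceeded each WT library, and the mean rose 1.27-fold. The log2 fold change of Cdk6 was 0.26 (limma, adjusted p = 1.17e-11, standard error 0.01). The antisense gene Gm17590, which shares 2.63% of its exons, rose too, from 52, 66 and 63 recovered reads to 90, 95 and 104 (log2 fold change 0.20, limma, adjusted p = 0.000259).

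Cdk4 (chromosome 10, 127063534 to 127067920) had 6033, 6327 and 6137 normalized reads in WT and 5673, 5949 and 5936 in Piezo1cKO. The groups were next to each other, with a gap of 0.01 on the deposited scale against a range of 0.05 within a group. Its log2 fold change was -0.05 (limma, adjusted p = 0.0487, standard error 0.02), and the call was lost under 9 of 15 alternatives, with adjusted p-values up to 0.241. Leaving out a library lost it in 5 of 6 fits, all but the one without WT replicate 1 (adjusted p up to 0.181). Tspan31, which shares 19.7% of the exons of Cdk4 on the opposite strand, had a log2 fold change of 0.05 (limma, adjusted p = 0.161). Per length, Cdk6 made up 87.8%, 86.8% and 87.3% of Cdk4 and Cdk6 together in WT and 90.1%, 90.2% and 90.2% in Piezo1cKO, a difference of 2.92 percentage points without overlap (exact permutation p = 0.1, adjusted 0.125). Their sum per kilobase was 123% of the WT sum in Piezo1cKO, while that of the D cyclins was 72.2%.

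The inhibitors showed the widest contrast. Cdkn2c, encoding the INK4 inhibitor p18 of Cdk4 and Cdk6 (chromosome 4, 109660876 to 109667189), had 2250, 2214 and 2466 normalized reads in the WT libraries and 458, 468 and 514 in the Piezo1cKO libraries. No library came near the other group, and the Piezo1cKO mean was 20.8% of the WT mean, 4.81-fold lower. Deposited values fell from 10.85 ± 0.06 in WT to 9.34 ± 0.05 in Piezo1cKO (SD, n = 3), with a log2 fold change of -1.52 (limma, adjusted p = 8.94e-17, standard error 0.04). The recovered reads gave -2.27 (limma-voom, adjusted p = 1.41e-13, standard error 0.06). Among all genes tested, 0.233% changed by as much or more on the deposited scale, and on that of recovered reads, where genes with few reads are not held back, 13.3%. No other annotated gene shares exons with Cdkn2c.

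Cdkn1b, encoding the CIP/KIP inhibitor p27 (chromosome 6, 134920401 to 134925513), had 2195, 2081 and 2007 normalized reads in WT and 3743, 3535 and 3813 in Piezo1cKO. The lowest Piezo1cKO library was well above the highest WT library, and the mean rose 1.77-fold. The log2 fold change was 0.58 (limma, adjusted p = 6.62e-12, standard error 0.03) and 0.82 on recovered reads (standard error 0.04). Its exons are shared with no other annotated gene. Per length, Cdkn2c was above Cdkn1b in all 3 WT libraries (1.74, 1.80 and 2.08 times) and below it in all 3 Piezo1cKO libraries (0.207, 0.224 and 0.228 times), so the order of these inhibitors turned around.

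**Figure D3:**
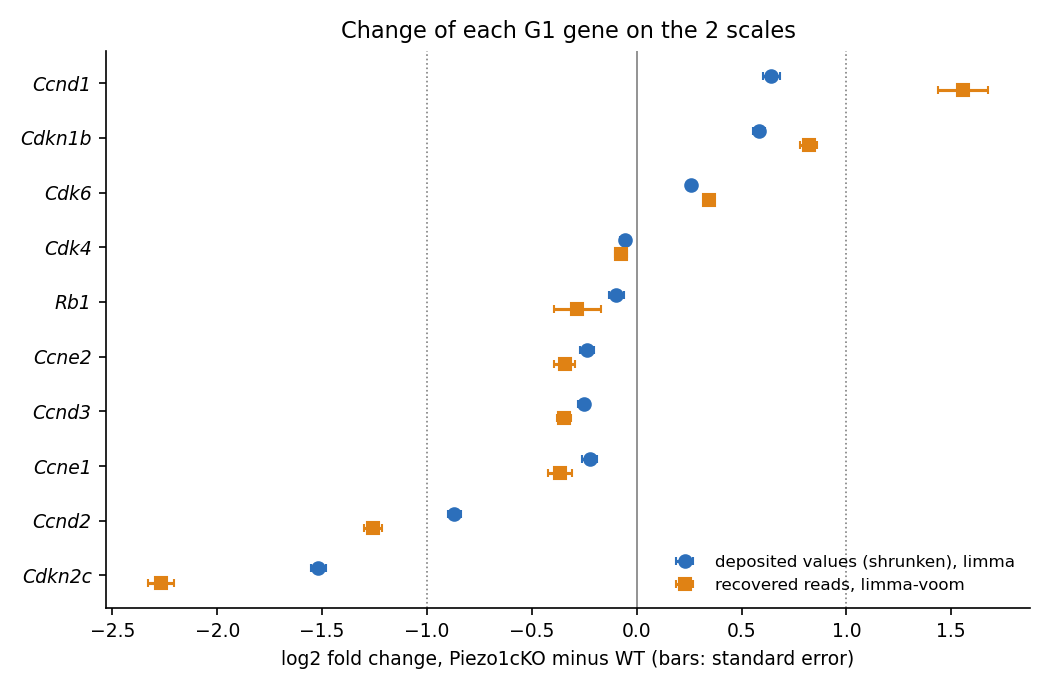
Log2 fold change (horizontal axis, Piezo1cKO minus WT) of each G1 gene with its standard error, on the deposited shrunken values by limma (circles) and on recovered reads by limma-voom (squares). Dotted lines mark a log2 fold change of 1 in either direction. Each gene has the same sign on both scales, and Cdkn2c, Ccnd2 and Ccnd1 pass the dotted lines on recovered reads, Cdkn2c alone on the deposited values.

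The E cyclins, partners of Cdk2 at the entry into S phase, fell by like amounts. Ccne1 (chromosome 7, 38097984 to 38107534) had 709, 713 and 679 normalized reads in WT and 547, 570 and 514 in Piezo1cKO. Ccne2 (chromosome 4, 11191351 to 11204779) had 2196, 1955 and 2160 in WT and 1741, 1601 and 1633 in Piezo1cKO. In both genes every Piezo1cKO library was below every WT library, at 77.6% of the WT mean for Ccne1 and 78.8% for Ccne2. The log2 fold change of Ccne1 was -0.22 (limma, adjusted p = 2.32e-05, standard error 0.04) and -0.37 on recovered reads. That of Ccne2 was -0.24 (limma, adjusted p = 8.78e-06, standard error 0.03). Ints8 shares 17.4% of the exons of Ccne2 on the opposite strand and had a log2 fold change of -0.01 (limma, adjusted p = 0.917). Per length, Ccne2 made up 69.5% ± 1.69 of both E cyclins in WT and 69.9% ± 1.53 in Piezo1cKO (SD, n = 3). This difference of 0.361 percentage points was within the spread of the libraries (exact permutation p = 0.6), and left-out libraries moved it between -0.604 and 1.24.

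Rb1, the pocket protein these kinases act on (chromosome 14, 73183673 to 73325822), had few reads for its length, 21.2 normalized reads per kilobase in WT. The WT libraries had 131, 121 and 130 normalized reads, and the Piezo1cKO libraries 106, 104 and 104. The groups did not overlap, and the Piezo1cKO mean was 82.1% of the WT mean. The log2 fold change was -0.10 (limma, adjusted p = 0.0269, standard error 0.04), and -0.28 on recovered reads (adjusted p = 0.0393, limma-voom). The call was lost under 7 of 15 alternatives, with adjusted p-values up to 0.0863, among them the fits without WT replicate 1 or 3 or Piezo1cKO replicate 2 or 3. Rcbtb2 and Lpar6 share 8.11% and 6.78% of the exons of Rb1 on the opposite strand. Rcbtb2 rose by a log2 fold change of 0.36, opposite to Rb1, and Lpar6 had a value of -0.05 (limma, adjusted p = 0.307).

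The other genes of the pathway were taken from 6 lists, and 62 of their genes were tested. Of the 5 other CDK inhibitors tested, 2 rose and 2 fell, with a median log2 fold change of 0.00, which is close to the shares over all genes tested (31.6% higher, 31.4% lower). The higher count was 1 without WT replicate 1 or 3 or without Piezo1cKO replicate 2 or 3, where the call of Cdkn1a was lost. Cdkn2d (p19), an INK4 inhibitor, rose by a log2 fold change of 0.14 (limma, adjusted p = 0.000343) and Cdkn1a (p21), a CIP/KIP inhibitor induced by p53, by 0.06 (adjusted p = 0.0273). Cdkn1c (p57), which helps to keep blood stem cells at rest, had 59, 49 and 54 recovered reads in WT and 7, 4 and 13 in Piezo1cKO. All 3 Piezo1cKO libraries were far below WT, and Cdkn1c fell by 0.31 on the deposited scale (limma, adjusted p = 1.53e-07), and by 2.78 on recovered reads. Cdkn2a had 7 reads in each WT library and 4, 0 and 1 in Piezo1cKO (log2 fold change -0.04, limma, adjusted p = 0.0125), a call that was lost with values recentred on library medians and without a trend in the variance. A filter at a mean of at least 5 left both Cdkn1c and Cdkn2a untested. Cdkn2b had at most 13 reads in any library, and its groups overlapped (log2 fold change 0.00, limma, adjusted p = 0.874).

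Among 6 genes of Cdk2 and CDK activation, 4 fell and 1 rose (median log2 fold change -0.10), where 31.4% of all genes tested fell and 31.6% rose. Cdc25a, the phosphatase that activates Cdk2, rose from 169, 185 and 183 recovered reads to 244, 227 and 265, a log2 fold change of 0.23 (limma, adjusted p = 0.000143). Mnat1, a subunit of the CDK-activating kinase, fell by 0.22 on the log2 scale, Ccna2 by 0.12, Cdk2 by 0.11 and Cdk7, the kinase of that complex, by 0.09, which did not hold with recentred values or without WT replicate 3. Ccnh, its cyclin, had a log2 fold change of 0.04 (limma, adjusted p = 0.358).

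Of the 12 pocket proteins, E2F and DP factors, 9 fell and none rose (31.4% of all genes tested fell, and the list had a median log2 fold change of -0.24, against 0.00). E2f2, an activating E2F factor, had 996, 1046 and 1102 recovered reads in WT and 219, 225 and 207 in Piezo1cKO. Its groups were far apart, and its Piezo1cKO mean was 21.4% of the WT mean (log2 fold change -1.33, limma, adjusted p = 6.16e-16, standard error 0.04, and -2.22 on recovered reads). E2f4 and E2f6, which repress E2F targets, each fell by 0.37 on the log2 scale. E2f5 had 48, 39 and 47 recovered reads in WT and 4, 3 and 5 in Piezo1cKO. Its log2 fold change was -0.28 on the deposited scale (limma, adjusted p = 8.02e-08) and -3.31 on recovered reads, a larger fall there than that of E2f2. The log2 fold changes of the pocket protein Rbl2 (0.04, adjusted p = 0.364) and the activators E2f1 (-0.07, adjusted p = 0.104) and E2f3 (-0.07, adjusted p = 0.0885) did not pass the test of limma, and both E2F factors passed in a fit without a trend in the variance.

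For turnover of G1 regulators, 5 of 9 genes tested fell and 1 rose (median log2 fold change -0.12), beside 31.4% lower and 31.6% higher over all genes. Fbxo31, an F-box protein that directs cyclin D1 for degradation, had 883, 888 and 992 recovered reads in WT and 353, 386 and 370 in Piezo1cKO. This is 41.4% of the WT mean after normalization, with a log2 fold change of -0.78 (limma, adjusted p = 1.15e-12, standard error 0.04) and of -1.27 on recovered reads. Fbxo4, also described as acting on cyclin D1, fell by 0.32 on the log2 scale, and the scaffold Cul1 by 0.20. Skp1a, which links F-box proteins to Cul1, rose by a log2 fold change of 0.09 (limma, adjusted p = 0.00624), a call that was lost without WT replicate 3.

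Of 10 upstream regulators of D cyclins and p27, 4 rose and 5 fell (median log2 fold change -0.05), with 31.6% higher and 31.4% lower among all genes tested. Without WT replicate 3 the higher count was 2, and without Piezo1cKO replicate 1 the lower count was 3. Foxo3, a factor known to activate Cdkn1b, rose from 1385, 1298 and 1339 recovered reads to 1735, 1992 and 1934, a log2 fold change of 0.37 (limma, adjusted p = 7.87e-09). The other FOXO genes of the list did not rise. Foxo1 fell from 37, 38 and 46 recovered reads to 9, 32 and 22 (log2 fold change -0.12, limma, adjusted p = 0.00741, and -1.03 on recovered reads). Foxo4 had a log2 fold change of -0.02 (limma, adjusted p = 0.432). The other higher genes with the largest changes were Stat5a (0.16) and Akt1 (0.12), and Akt1 lost its call without WT replicate 3 or Piezo1cKO replicate 2. The lower genes with the largest changes on the deposited scale were Stat5b, Stat3 and Myc, with log2 fold changes of -0.20, -0.19 and -0.18. In Myc, which drives D cyclins and Cdk4, the mean normalized reads of Piezo1cKO were 84.3% of those of WT.

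Of 20 E2F targets of S phase entry, 12 fell, 2 rose and 6 did not pass, with a median log2 fold change of -0.10. Over all genes tested the lower share was 31.4% and the higher share 31.6%. Rrm2, a subunit of ribonucleotide reductase, fell by 0.41 on the log2 scale, Uhrf1, which maintains DNA methylation, by 0.35, and the helicase subunit Mcm5 by 0.27. The 2 that rose did so by less, Cdt1 by 0.09 and Tyms by 0.06, and neither held without a filter on low values. With any one library left out, at most 1 gene of the list was higher. Mki67, which marks cycling cells, had 827, 767 and 824 recovered reads in WT and 757, 747 and 686 in Piezo1cKO. Its groups overlapped after normalization (log2 fold change -0.06, limma, adjusted p = 0.136), and it passed the test in the fit without Piezo1cKO replicate 1.

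**Figure D4:**
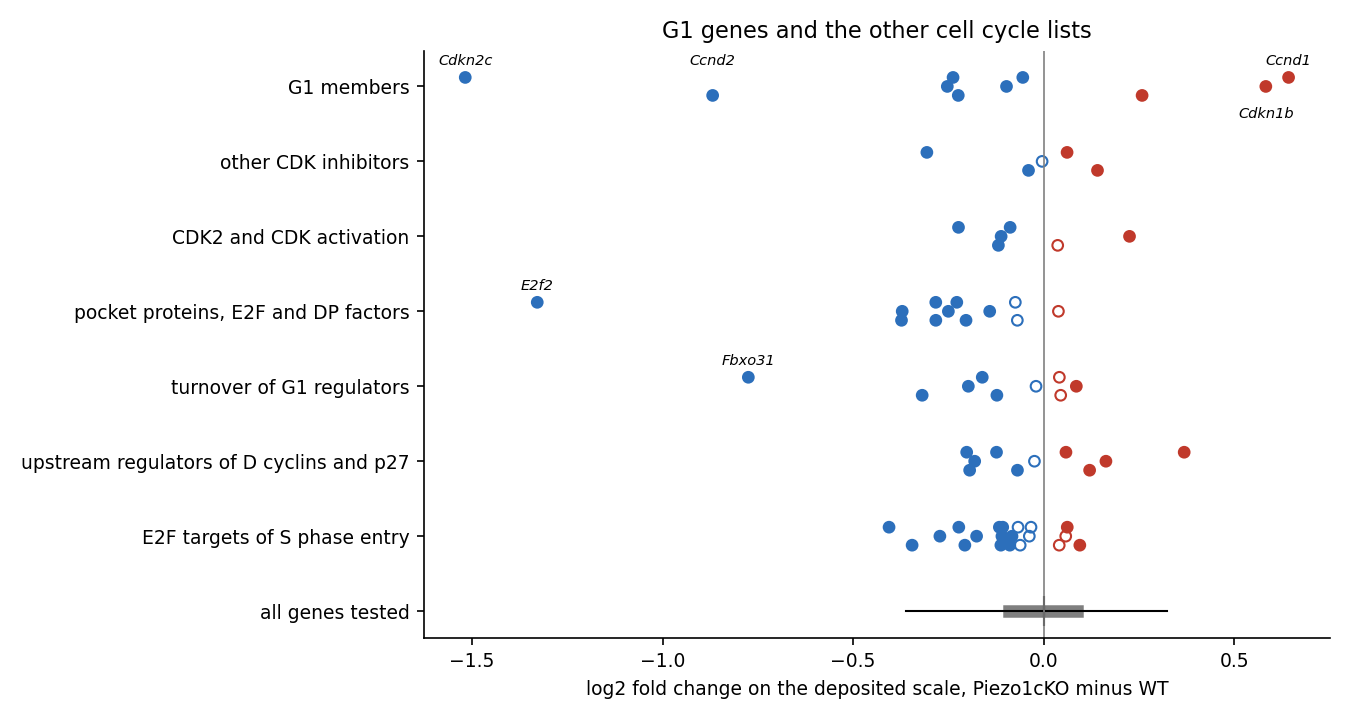
Log2 fold changes on the deposited scale (horizontal axis, Piezo1cKO minus WT) of the 10 G1 genes and of the tested genes of 6 other lists, 1 point per gene, red for positive and blue for negative, filled at an adjusted p under 0.05 (limma). The bottom row shows all 16746 genes tested, with the median, the 25th to 75th percentile (-0.09 to 0.09) and the 5th to 95th percentile (-0.36 to 0.32). Cdkn2c, E2f2, Ccnd2 and Fbxo31 lie far to the left, Ccnd1 and Cdkn1b to the right.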

How the data were processed

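RNA-seq of 3 WT and 3 Piezo1cKO LSC libraries (Smart-seq2 based, oligo-dT primed, Tn5 fragmented, paired ends) was used. The age given, 8 to 10 weeks, is that of donors and recipients and not of the time of sorting. Trimming by the authors used fastp 0.20.1, mapping HISAT2 2.2.1 on GRCm38, and gene counting featureCounts 2.0.1, after which the authors normalized with DESeq2 1.28.1. The deposited log2 values have the form of a regularized log, which the methods do not name. Of 55367 genes, 28965 are at 0 in all libraries. No column was left out.

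Genes with a mean of at least 1 entered lmFit and eBayes with a trend (limma 3.58.1 in R 4.3.3), with no pseudocount and no covariate, and Benjamini-Hochberg adjustment ran over all 16746 genes. Undoing the transform, from 84 starting points, gave values within 0.1 of a whole number for 92.7% of values of genes with a mean of at least 1 read, against 23.1% with the shrinkage set 10% off. On simulated reads of 24535 genes 100% came back. Those reads were put through a transform of the same form, so this cannot show that the deposited values have that form. The 17352 genes with 10 or more recovered reads over all libraries were fitted by limma-voom. The reads carry no molecular identifiers. Libraries of a group differed by more than counting noise (chi-square per degree of freedom 1.53 to 2.66).

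Lengths, coordinates and overlaps came from GENCODE M21 (GRCm38; 96.7% of genes with values matched 1 entry by symbol), and promoters from RefSeq on GRCm38.p6. Shares per length were compared by exact permutation.

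The members and lists were chosen with earlier results of these data known. Named are the 10 genes and Piezo1, all tested genes of lists of up to 6, and from longer lists the 3 higher and 3 lower with the largest change past the test. Rbl2, E2f1, E2f3, E2f5, Foxo1, Foxo4, Mki67 and the genes of overlapping exons were named after their values were seen. The list name Skp1 has no row, and Skp1a was used. Alternatives were the filter, scaling, eBayes without a trend, recovered reads, a replicate block, gene length and each library left out. The rest was done in Python 3.11.15 (numpy 2.4.6, scipy 1.17.1, pandas 2.3.3, matplotlib 3.10.9).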

Additional observations from a re-analysis of the deposited data

How the results depend on the processing

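No log2 fold change of the 10 genes changed sign under the 15 alternatives, and 134 of 150 values stayed on their side of the threshold. The other 16 were calls of Cdk4 (9 alternatives) and Rb1 (7 alternatives) that were lost. Of these, 9 lost calls came from fits with 1 library fewer, and for the others the cause was not tested. With a library left out, the log2 fold change ran from -0.07 to -0.04 for Cdk4 (largest adjusted p = 0.181, limma) and from -0.11 to -0.09 for Rb1 (0.0698). The lower genes numbered 5 or 6 in these fits. Genes with an absolute log2 fold change over 1 were 3 in place of 1 on recovered reads, with size factors, library totals or a replicate block, because the deposited values are shrunken.

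The replicate number as a block left 3 of the genes higher and 7 lower, and the correlations of deviations between equally numbered libraries were 0.195, 0.161 and 0.07, so the numbers were not read as pairs. The block moved the calls over all genes from 10556 to 11055. On recovered reads it lost the call of Rb1 (adjusted p = 0.0534).

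With the length of the longest transcript, the share of Ccnd1 moved by 4.03 percentage points in place of 6.59, that of Ccnd2 by -9.44 in place of -12.5 and that of Cdk6 by 3.55 in place of 2.92. From deposited values raised to the power of 2, these were 3.26, -8.29 and 2.16, and that of Ccnd3 was 5.03 in place of 5.96. With a library left out they ran from 6.44 to 6.75 (Ccnd1), -12.9 to -12.2 (Ccnd2), 5.57 to 6.41 (Ccnd3) and 2.67 to 3.16 (Cdk6). With 3 against 2 libraries no p under 0.2 is possible.

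Over the 6 other lists, 10 of 62 genes tested were higher and 37 lower, where 31.6% and 31.4% of all genes were. Without a trend in eBayes 6 were higher, and with a library left out 5 to 9, the fewest without WT replicate 3. Counts within single lists moved by more than 1.5 times in 20 comparisons and by less in 160.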
